A study of Mus musculus with 2 samples.

Results

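Stromal cluster 17 was the smallest of the stromal clusters in single cell RNA-seq (scRNAseq) of mononucleated cells from dystrophic mouse muscle. Its members were chosen by their number in the deposited Seurat clustering, which rests on the measured expression of the cells, and there were 152 of them among 17813 cells, 80 from mdx and 72 from cKO muscle. The mdx mouse lacks dystrophin and is a model of Duchenne muscular dystrophy. The cKO mice carried the same mdx mutation, a floxed Spp1 gene whose exons 2 and 3 lie between loxP sites, and Lyz2Cre, which drives Cre from a myeloid promoter, so Spp1 was targeted in macrophages and other myeloid cells and not in stromal cells. Whether the mdx mice carried a floxed allele is not given in the sources used here. All mice were male, on the mdx BL/10 background and 3 months old (12 weeks in a legend). Muscles of the forelimbs, hindlimbs and diaphragm were pooled, and each genotype gave 1 library, described as 3 mice. Cells carry no label of the mouse they came from, so spread between mice is unknown and differences were not tested. Intervals are at 95% and cover counting error only.

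Stromal cells of muscle include the fibroadipogenic progenitors (FAPs), which support muscle stem cells after injury and can become fibroblasts or adipocytes, and the fibroblasts and tenocytes that lay down and maintain connective tissue. They are recognised by Pdgfra, a receptor for platelet-derived growth factor, and by matrix genes such as Col1a1, a chain of type I collagen, and Dcn, the collagen-binding proteoglycan decorin. Spp1 encodes osteopontin, a secreted matricellular protein made in large amounts by macrophages of injured muscle. The table analysed here holds no expression values per gene, so Pdgfra, Col1a1 and Dcn could not be checked in cluster 17 and no gene is given a value. For each cell it holds the number of unique molecular identifiers (UMIs, each tagging 1 captured transcript), how many genes were detected, what percent of the UMIs was mitochondrial, cell cycle scores (S and G2M) and a cluster number.

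The stromal name of cluster 17 therefore rested on cell numbers. Clusters 0, 2 and 6 held 2051 mdx and 2953 cKO cells, and adding cluster 17 gave 2131 and 3025. Those sums were set against the stromal cell numbers behind the published shares and were equal to them in both genotypes. Of the 17 clusters other than 0, 2 and 6, cluster 17 was the only 1 that completed both numbers. Among all 1048575 sets of the 20 clusters, 1 set was equal in both genotypes, and it held cluster 17. A match to within 10 cells would not have settled it, since 23 sets came that close in both genotypes and 11 of them held cluster 17. Because the clusters were made from the genes of these same cells, the values below that set cluster 17 beside clusters 0, 2 and 6 are descriptions and not tests.

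Cluster 17 was the only stromal cluster with nearly even numbers from the libraries. Its 80 mdx cells were 52.6% of the cluster (44.4 to 60.8), whereas mdx gave 40.2% of all cells. As a share of the library, cluster 17 made up 1.12% of 7156 cells in mdx (0.887 to 1.39) and 0.676% of 10657 in cKO (0.529 to 0.850). Dividing the share in cKO by that in mdx gave 0.604 (0.440 to 0.830), below 1 beyond counting error. That ratio stood between the other stromal clusters, at 0.0226 for cluster 6 and 2.08 and 3.36 for clusters 0 and 2. It was the eighth lowest of the 20 clusters, 11 of which had the lower share in cKO.

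This ratio changed with the cells counted. Over all stromal cells the ratio was 0.634 (0.463 to 0.867), from 3.75% in mdx and 2.38% in cKO. Over the cells outside clusters 0, 2 and 6 it was 0.596 (0.435 to 0.818). With only cluster 6 set aside it was 0.258 (0.189 to 0.351), from 9.37% of 854 mdx cells and 2.41% of 2982 cKO cells. Among cells with at most 5% mitochondrial UMIs the ratio over all cells was 0.388 (0.252 to 0.597), on 55 mdx and 33 cKO cells of the cluster. Minimums of 3000 and 6000 UMIs per cell, added after seeing the data, gave ratios of 0.888 (0.584 to 1.35) and 1.43 (0.701 to 2.91), and both intervals include 1.

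**Figure D1:**
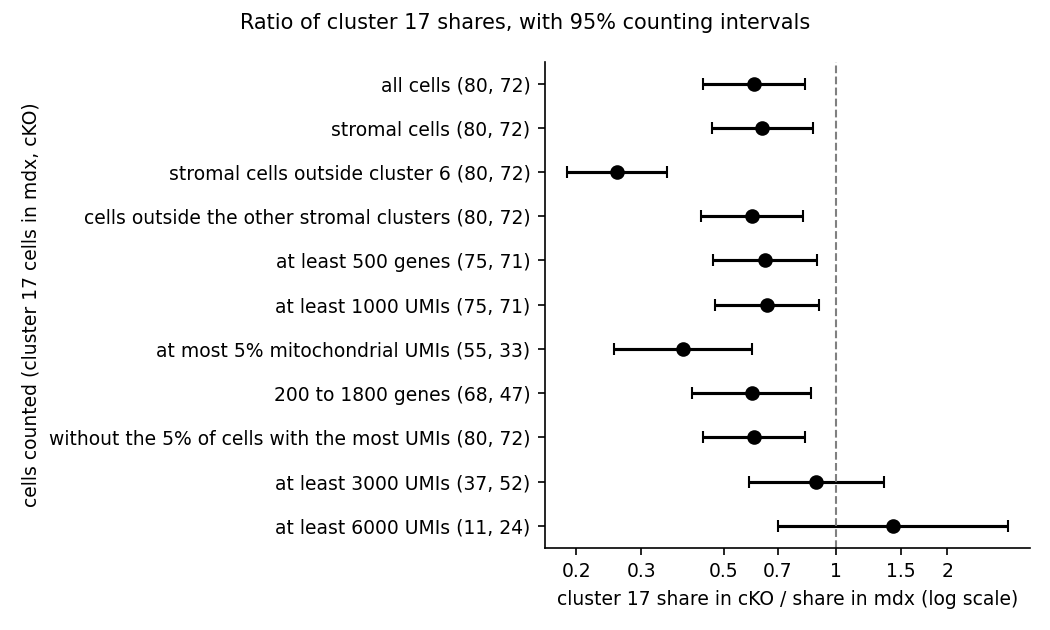
Cluster 17 share in cKO divided by that in mdx (log scale, x axis) for each set of cells counted (y axis, with the numbers of cluster 17 cells in mdx and cKO), drawn as points with 95% intervals beside a dashed line at 1. The ratio is 0.604 over all cells and 0.258 over stromal cells outside cluster 6, and the intervals reach past 1 for cells with at least 3000 or 6000 UMIs. Leaving out cluster 6 removes mostly mdx cells from the denominator.

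Cells of cluster 17 held fewer UMIs in mdx than in cKO, the other way round from clusters 0, 2 and 6. In mdx the 80 cells ranged from 705 to 12207 UMIs with a median of 2781.5 (quartiles 1473.75 and 4685). In cKO the 72 cells ranged from 717 to 11313 with a median of 4053.5 (quartiles 2814.75 and 6935.5). The ranges overlapped almost fully, and the libraries differed at both ends: 29 of 80 cells in mdx (36.2%, 25.8 to 47.8) had under 2000 UMIs, and in cKO 7 of 72 did (9.72%, 3.999 to 19.01). At 6000 UMIs or more the order was turned, with 11 cells in mdx (13.8% of the cluster) and 24 in cKO (33.3%). The ratio of the cKO to the mdx median was 1.46 in cluster 17, and 0.689, 0.692 and 0.410 in clusters 0, 2 and 6. With 1 library per genotype, the depth of a library and its genotype cannot be told apart.

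Within each library the place of cluster 17 among the stromal clusters differed. In mdx its median was 0.337 times that of cluster 0 (8251 UMIs) and 0.354 times that of cluster 2 (7859), and close to that of cluster 6 (3011 UMIs, 0.924 times). In cKO it was 0.713 times that of cluster 0 (5685 UMIs) and 0.746 times that of cluster 2 (5436), and 3.28 times that of the 43 cells of cluster 6 (1235 UMIs). No cell of cluster 17 lay in the top 5% of its library by UMIs, which began at 17221.8 UMIs in mdx and 13572.6 in cKO. In cluster 0, 17.8% of mdx and 11.9% of cKO cells did, and in cluster 2 they were 2.23% and 1.71%. The 0 of 80 and 0 of 72 cells allow shares of up to 3.75% and 4.17% by 3 counts, and 4.51% and 4.99% by the exact interval, so a share like that of cluster 2 was not detectable.

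**Figure D2:**
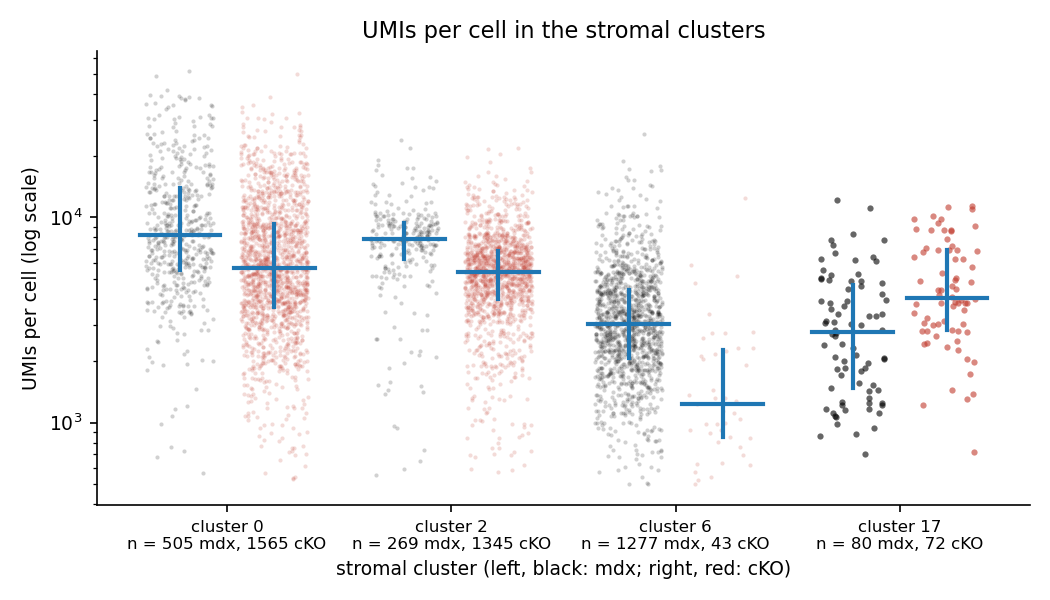
UMIs per cell (y axis, log scale) in stromal clusters 0, 2, 6 and 17 (x axis) for mdx (black, left) and cKO (red, right), where each point is a cell and blue lines mark the median and the quartiles. Cluster 17 has medians of 2781.5 in mdx and 4053.5 in cKO, while clusters 0, 2 and 6 have the higher median in mdx.

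Cluster 17 contributed nearly the same share of transcripts to both libraries. In mdx its cells held 266247 UMIs together and in cKO 358548, which were 0.617% and 0.605% of the UMIs of the library. Of the UMIs of all stromal cells, cluster 17 held 2.10% in mdx and 1.82% in cKO.

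Among stromal cells outside cluster 6, the share of cluster 17 was higher in mdx below 6000 UMIs, in bins chosen after seeing the data. Of stromal cells outside cluster 6 with 500 to 1499 UMIs, 21 of 39 in mdx (53.8%, 37.2 to 69.9) and 5 of 111 in cKO (4.50%, 1.48 to 10.2) belonged to cluster 17. From 1500 to 2999 UMIs the numbers were 22 of 57 in mdx (38.6%) and 15 of 344 in cKO (4.36%). From 3000 to 5999 UMIs they were 26 of 190 in mdx (13.7%) and 28 of 1262 in cKO (2.22%). At 6000 UMIs or more they were 11 of 568 in mdx (1.94%, 0.971 to 3.44) and 24 of 1265 in cKO (1.90%, 1.22 to 2.81), a ratio of 0.980 (0.483 to 1.99). Below 6000 UMIs each ratio of cKO to mdx lay under 1 with its interval, at 0.0837, 0.113 and 0.162 from the lowest bin up.

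These shares depend on leaving out cluster 6, which held most stromal cells of low depth in mdx. Under 2000 UMIs, mdx had 307 cells in cluster 6 and 14 in each of clusters 0 and 2. In cKO, cluster 6 had 28 such cells, and clusters 0 and 2 had 116 and 87. Over all cells of the library in the same bins, the ratio of the cluster 17 share was 0.0991 (0.0376 to 0.261) from 500 to 1499 UMIs, 0.684 (0.356 to 1.32) from 1500 to 2999, 0.658 (0.387 to 1.12) from 3000 to 5999 and 1.43 (0.701 to 2.91) at 6000 or more. Only the lowest bin, with 21 mdx and 5 cKO cells of the cluster, had an interval that excludes 1. Cells of that depth were 26.2% of cluster 17 in mdx and 6.94% in cKO.

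**Figure D3:**
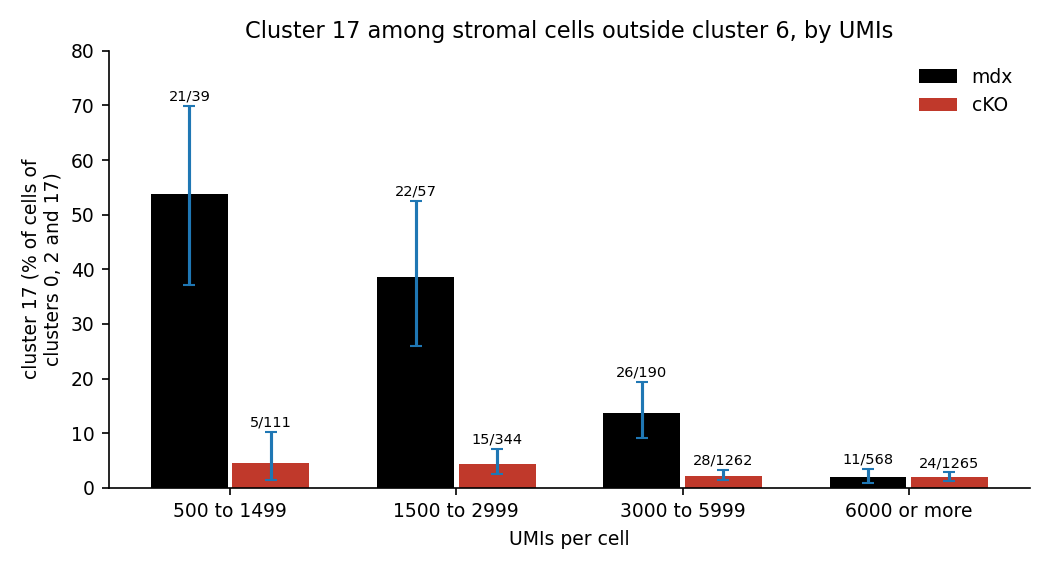
Cluster 17 as a percent of the cells of clusters 0, 2 and 17 (y axis) in each range of UMIs per cell (x axis) in black for mdx and red for cKO. Error bars are 95% exact binomial intervals and labels give cluster 17 cells over all cells counted. Cluster 6, which held most mdx stromal cells under 2000 UMIs, is not counted. The share goes from 53.8% in the lowest range to 1.94% in the highest in mdx and from 4.50% to 1.90% in cKO.

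The number of genes detected followed the UMIs. The mdx cells of cluster 17 held 360 to 2891 genes with a median of 1157 (quartiles 758 and 1606.5), and the cKO cells 391 to 3620 with a median of 1570 (quartiles 1199 and 2236.5). In mdx, the medians of clusters 0, 2 and 6 were 2603, 2510 and 1274 genes, and in cKO they were 2114, 2058 and 611. The stated limits of 200 to 1800 genes per cell held 68 of 80 cells of cluster 17 in mdx (85.0%) and 47 of 72 in cKO (65.3%). They held 18.8% and 36.9% of the cells of cluster 0, and 15.2% and 32.1% of those of cluster 2. So the deposited cells do not follow those limits, and cluster 17 would lose a smaller share of its cells to them than these clusters. Of cluster 6 they held 79.1% in mdx and 93.0% in cKO, a higher share than of cluster 17 in cKO.

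At like numbers of UMIs, cells of cluster 17 held somewhat fewer genes than cells of clusters 0 and 2. Each cell was set against the cells of another cluster of its library within 10% of its UMIs, and its genes were divided by their median. The median of these ratios was 0.9496 against cluster 0 and 0.913 against cluster 2 in mdx (78 and 70 of 80 cells had such partners), and 0.930 and 0.917 in cKO (all 72 cells). Of the cells compared, 54 of 78 and 50 of 70 lay below 1 in mdx, and 55 of 72 and 56 of 72 in cKO. Partners in mdx were few at low depth. Clusters 0 and 2 each held 14 mdx cells under 2000 UMIs, where 29 of 80 cells of cluster 17 lay, so ratios there share few reference cells. Against cluster 6 the median ratio was 0.956 in mdx (80 cells) and 0.970 in cKO, where 40 of 72 cells found a partner. The latter value was 1.00 with a window of 20%, so no direction is read from it.

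Between the libraries, the cells of cluster 17 themselves differed little in genes once UMIs were alike. Set against cKO cells of cluster 17 within 10% of their UMIs, a comparison chosen after seeing the data, 74 mdx cells had a median ratio of 1.02 (quartiles 0.928 and 1.10). From 2000 to 3999 UMIs, 28 cells of each library had medians of 1254.5 genes in mdx and 1278 in cKO. From 4000 to 7999 UMIs, 20 mdx and 24 cKO cells had medians of 1790 and 1784.5 genes.

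Over cells of all depths, cluster 17 had the highest median mitochondrial share of the stromal clusters in both libraries. Transcripts of the mitochondrial genome encode subunits of the respiratory chain, and their share of UMIs also serves as a measure of the state of a cell at capture. In mdx the median was 3.87% of UMIs (quartiles 3.01 and 5.43) in cluster 17, and 3.46%, 3.02% and 2.98% in clusters 0, 2 and 6. In cKO it was 5.07% (quartiles 4.19 and 6.35) in cluster 17, and 3.62%, 3.18% and 1.58% in clusters 0, 2 and 6. Cells above 5% mitochondrial UMIs were 25 of 80 in mdx (31.2%, 21.3 to 42.6) and 39 of 72 in cKO (54.2%, 42.0 to 66.0). In clusters 0, 2 and 6 they were 12.9%, 7.06% and 10.5% in mdx and 18.98%, 12.9% and 23.3% in cKO. At like UMIs, in bins chosen after seeing the data, the order of the medians did not hold throughout. From 2000 to 3999 UMIs in mdx, the median was 4.16% in cluster 0 (50 cells) and 3.67% in cluster 17 (28 cells). In mdx from 1000 to 1999 and from 4000 to 7999 UMIs, and in each of these bins in cKO, cluster 17 had the highest median. In cluster 17, 7 mdx cells (8.75%) and 3 cKO cells (4.17%) lay above 8%. The deposited table ends just under 10%, below the stated limit of 20%, so cells of higher share are not seen in any cluster.

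The mitochondrial share of cluster 17 was higher in cKO than in mdx by a ratio of medians of 1.31, against 1.05 in both cluster 0 and cluster 2 and 0.528 in cluster 6. The ranges overlapped widely, from 0 to 9.99% in mdx and from 0.139% to 9.88% in cKO. In each library a lone cell stood below 1%, and the next lowest values were 1.30% in mdx and 2.78% in cKO. In cluster 17 the difference was also present at like UMIs, in bins chosen after seeing the data. From 2000 to 3999 UMIs the medians were 3.67% in 28 mdx cells and 5.33% in 28 cKO cells, and from 4000 to 7999 UMIs they were 4.09% in 20 mdx cells and 4.95% in 24 cKO cells. From 1000 to 1999 UMIs they were 4.46% in 24 mdx cells and 6.19% in 6 cKO cells. In that lowest bin cluster 0 was also higher in cKO (3.03% in 9 mdx and 5.43% in 90 cKO cells). So was cluster 2 (2.57% in 8 mdx and 4.01% in 63 cKO cells). From 2000 to 3999 UMIs the medians in mdx and cKO were 4.16% and 4.10% in cluster 0, and 3.37% and 3.55% in cluster 2. From 4000 to 7999 UMIs they were 3.43% and 3.37% in cluster 0, and 3.11% and 3.02% in cluster 2. Cluster 6 was lower in cKO in each bin.

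In absolute numbers, a cell of cluster 17 held a median of 118.5 mitochondrial UMIs in mdx (quartiles 60 and 209.75) and 204 in cKO (149.5 and 338.75), a ratio of 1.72. The remaining UMIs had medians of 2690.5 and 3859, a ratio of 1.43, so the higher depth in cKO was not confined to mitochondrial transcripts. In cKO the 204 mitochondrial UMIs were close to the 205 of cluster 0, whose cells held more UMIs in all. In mdx the 118.5 were fewer than the 295 of cluster 0 and more than the 88 of cluster 6.

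**Figure D4:**
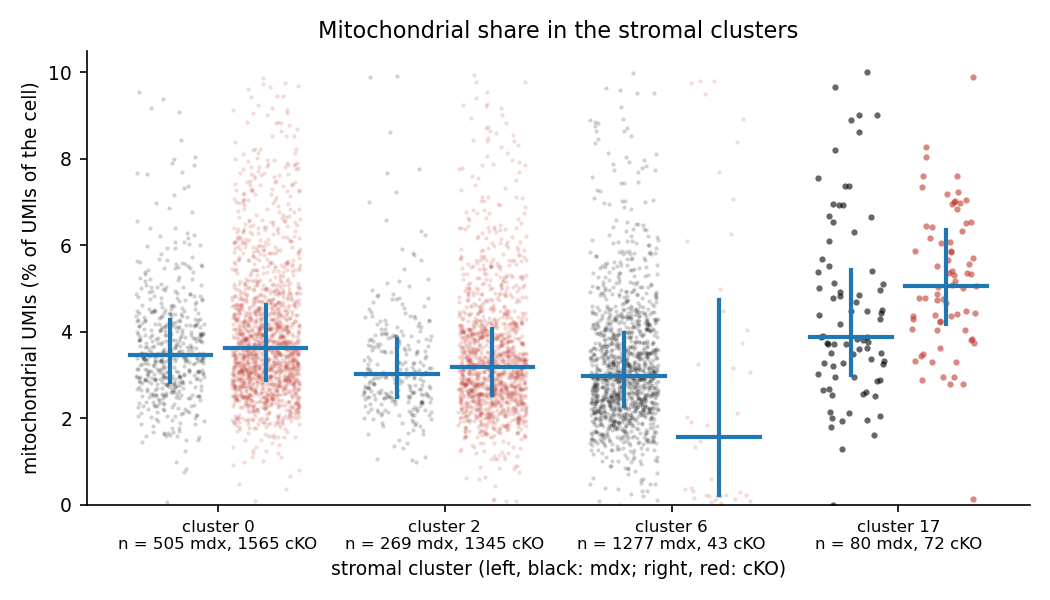
Mitochondrial UMIs as a percent of the UMIs of the cell (y axis) in stromal clusters 0, 2, 6 and 17 (x axis) for mdx (black, left) and cKO (red, right), where each point is a cell and blue lines mark the median and the quartiles. Cluster 17 has the highest median in each library, at 3.87% in mdx and 5.07% in cKO.

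No cell of cluster 17 scored high for the cell cycle. The score of a phase is the mean expression of genes of that phase less that of control genes, and cells in cycle stand well above 0. S scores ran from -0.104 to 0.0955 in mdx and from -0.134 to 0.0692 in cKO, with medians of -0.0430 and -0.0536. G2M scores ran from -0.156 to 0.0606 in mdx and from -0.168 to 0.0499 in cKO, with medians of -0.0722 and -0.0919. Above 0.2 on the higher of these scores lay 0 of 80 mdx and 0 of 72 cKO cells, which allows shares of up to 3.75% and 4.17% by 3 counts and 4.51% and 4.99% by the exact interval. The counts were also 0 at a threshold of 0.1. In cluster 0, 21 of 505 cells in mdx (4.16%, 2.59 to 6.29) and 83 of 1565 in cKO (5.30%, 4.25 to 6.53) lay above 0.2. In cluster 2 they were 1.12% and 0.967%, and in cluster 6 they were 0.157% and 11.6%. Most of these cells of cluster 0 were deeper than any cell of cluster 17. Counting only cells with no more UMIs than the deepest cell of cluster 17 in the library, a limit added after seeing the data, 1 of 350 cells of cluster 0 in mdx (0.286%, 0.00723 to 1.58) and 15 of 1287 in cKO (1.17%, 0.654 to 1.92) lay above 0.2. The other 20 and 68 high-scoring cells of cluster 0 lay beyond that depth. Under the same limit cluster 2 had 0 of 247 and 8 of 1281 such cells, and cluster 6 had 1 of 1257 and 4 of 42. With so few cells in cluster 17, a difference from clusters 0 and 2 in high-scoring cells was not detectable at these depths.

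The phase calls that Seurat made from these scores placed more cells outside G1. In mdx, 13 cells were called S and 7 G2M, together 25% (15.99 to 35.9), and in cKO 7 were called S and 3 G2M, together 13.9% (6.87 to 24.1). These 20 mdx and 10 cKO cells were exactly those with a score above 0, none of which reached 0.1, so the calls are not read as cycling. Clusters 0, 2 and 6 had 11.3%, 7.06% and 20.3% such calls in mdx and 15.7%, 8.25% and 53.5% in cKO. Median scores of clusters 0, 2 and 17 were higher in cells of fewer UMIs, in both libraries, and so were those of cluster 6 in mdx. In cluster 17, cells with 1000 to 1999 UMIs had a median G2M score of -0.0588 in mdx (24 cells) and -0.0256 in cKO (6 cells), and cells with 4000 to 7999 UMIs had -0.0923 (20 cells) and -0.0991 (24 cells). In cluster 0 at 4000 to 7999 UMIs the medians were -0.100 in mdx and -0.106 in cKO.

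**Figure D5:**
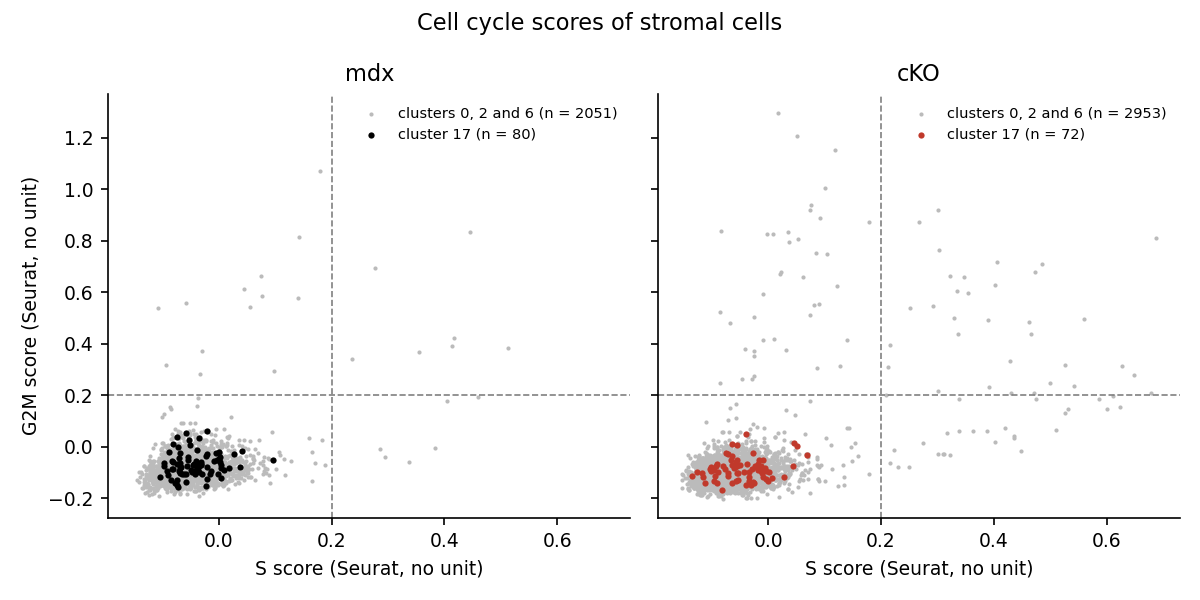
S score (x axis) and G2M score (y axis) of each stromal cell in mdx (left) and cKO (right), with cluster 17 in black or red over clusters 0, 2 and 6 in grey and dashed lines at 0.2. All 80 mdx and 72 cKO cells of cluster 17 lie below 0.1 on both scores.

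The cell numbers of cluster 17 were then set beside the stromal subtypes of the separate subclustering of Pdgfra+ cells, which are FAPs, fibroblasts, activated fibroblasts, tenocytes, Lifr+ cells and Procr+ cells. Of 6 subtypes, 0 had the numbers of cluster 17 in mdx and cKO, and of the 63 sets that can be made from them, 0 added up to those numbers. Tenocytes, which form tendon, were nearest in number, and cluster 17 held 58 more cells in mdx and 3 more in cKO. The subclustering was separate and covered fewer cells, so a matching subtype need not have equal numbers. Neither the lack of a match nor the nearest subtype identifies cluster 17. Tenocytes had fewer cells in mdx than in cKO, as did FAPs, fibroblasts and activated fibroblasts, while Lifr+ and Procr+ cells had more in mdx. The subclustering covered 235 fewer mdx and 434 fewer cKO cells than the 2131 and 3025 stromal cells counted here, more than the 80 and 72 cells of cluster 17. Clusters 0, 2 and 6 alone exceeded it by 155 and 362 cells, so, if it drew on these cells, some of clusters 0, 2 and 6 were left out of it, and whether cluster 17 was included cannot be told from cell numbers.

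The libraries shared 20 cell barcodes. A lone cell of cluster 17, an mdx cell with 3320 UMIs, had such a barcode, and the cKO cell with the same barcode lay in cluster 2 with 5590 UMIs.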

How the data were processed

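Mononucleated cells from muscle of mdx and cKO mice were profiled with a 10x Genomics 3' kit, 1 library per genotype. Cell Ranger 7 and the mm10 genome come from the submitters' processing notes, and Seurat, used for clustering, from the study's methods. The deposited table has 1 row per cell. Counts of UMIs and of genes stand as deposited, without normalization. The mitochondrial share was deposited as a fraction and turned into percent here, and multiplied by the UMIs it was whole within 1e-06 in all 17813 cells. Each cell cycle score was computed by the authors in Seurat. The deposited cluster columns, made at a resolution of 0.5, agree in all cells. Library names were read as Cre-negative (mdx) and Cre-positive (cKO); the mdx sample carries a control WT genotype label, taken here to refer to Spp1.

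No cell was filtered out and no doublet caller was run, and cells could not be thinned to a common depth. The depth was 43185486 UMIs in mdx and 59240298 in cKO. Shares have exact (Clopper-Pearson) intervals and ratios of shares log intervals, at 95%; a count of 0 was taken to allow up to 3 counts. Clusters were compared as medians and quartiles over cells, with no p-value. Alternatives were other denominators, filters on genes, UMIs and mitochondrial share, means, score thresholds and UMI windows. By rule, a gene was to be named with a value only if the table held expression values, and it holds none. The cluster, the marker genes and the alternatives were chosen with earlier results of these data known. The functions were tested on simulated data. Python 3.11.15, pandas 2.3.3, NumPy 2.4.6, SciPy 1.17.1 and Matplotlib 3.10.9 were used.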

Additional observations from a re-analysis of the deposited data

Results flagged for a closer look

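The median number of UMIs per cell of cluster 17 was 1.46 times as high in cKO as in mdx, whereas in the other stromal clusters it was lower in cKO, at 0.689 times for cluster 0, 0.692 times for cluster 2 and 0.410 times for cluster 6. It was singled out because its direction between the genotypes was opposite to theirs. The difference in direction was not tested, since each genotype has 1 library.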

How the results depend on the processing

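Of 53 alternative values, 46 kept their direction and stayed within the 95% interval over cells of the value reported. Part of the 46 could not have come out otherwise. The other cluster column is identical in every cell. Cluster 17 had 0 cells in the top 5% by UMIs, so its medians repeat exactly once that top share is dropped. With 0 of its cells above a score of 0.2, a threshold of 0.3 or a minimum of 1000 UMIs must also give 0. The 46 is therefore not a measure of robustness. The ratio of the cluster 17 share was 0.604 over all cells, 0.258 over stromal cells outside cluster 6, and 0.388 among cells with at most 5% mitochondrial UMIs. For the 0.258, mostly mdx cells were taken from the denominator. With minimums of 3000 and 6000 UMIs, added after seeing the data, the ratio over all cells was 0.888 and 1.43, and at 6000 it changed direction with an interval that includes 1. The mean in place of the median moved the cKO values to 4979.8 UMIs and 1729.9 genes. The ratio of genes to cluster 6 at like UMIs in cKO was 0.970 within 10% of the UMIs and 1.00 within 20%, where it changed direction. The causes were not tested. No paired analysis was possible because each genotype has 1 library, and no replicate could be left out for the same reason. Within cluster 17, a count of 0 among its 80 and 72 cells allows up to 3.75% and 4.17% by 3 counts.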

Other observations

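Among the 20 clusters, 4 had the higher median UMIs per cell in cKO, namely clusters 16 to 19, and the other 16 had it in mdx. In clusters 16, 18 and 19 the ratio of the cKO to the mdx median was 1.49, 1.501 and 1.08, beside 1.46 in cluster 17. Of these 4 clusters, cluster 17 alone had the lower share of cells in cKO, and alone had the higher median mitochondrial share there, with a ratio of 1.31 beside 0.897, 0.973 and 0.944 in the others.

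In order of median UMIs from the highest, cluster 17 stood at place 18 of 20 in mdx and at place 11 in cKO, and in order of the median mitochondrial share at places 10 and 6. Across cells of cluster 17, Spearman's rho between UMIs and the mitochondrial share was 0.00114 in mdx (n = 80) and -0.321 in cKO (n = 72), a description over cells of 1 library each in which the share is a part of the same UMIs.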
